A study of Rattus norvegicus with 12 samples.

Results

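The comparison described here is that of silica-exposed with saline-treated rat lungs at day 14, taken from a study of experimental silicosis. It rests on the 6 arrays, of 12 in the series, whose title and time point both say 14 days. The other 6 arrays carry a time point of 28 days and were used only to set the size of the response at the 2 days side by side. All rats were male Wistar rats, and the RNA came from whole lung. The 3 silica rats had received silicon dioxide into the trachea, as 1 mL of a suspension of 50 mg/mL, and the 3 saline rats 1 mL of saline by the same route. The titles name the dose as 50 mg/kg for the silica arrays and 0 mg/kg for the saline arrays, so the dose per body weight is not settled by the labels. The free-text fields of all 12 arrays speak of 28 days, and the methods of the study describe no rats killed at day 14. The day given here is that of the titles and time points. Nothing in the labels gives the rats' age or a litter, and each array is labelled as a separate replicate, so the p-values measure the spread between these arrays. According to the methods of the study, the 3 lungs per group used for arrays were picked by their histology. Whether this held for the lungs of day 14 is not stated.

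Inhaled crystalline silica is taken up by alveolar macrophages, cannot be digested by them, and injures their lysosomes. The cells release chemokines and cytokines that draw neutrophils and monocytes into the lung, and the particles are set free again when the cells die. Lasting inflammation of this kind is followed by nodules of macrophages and matrix and by fibrosis, in which the thin walls of the alveoli with their capillaries are lost. The results are ordered by these cells and processes, each with a list of genes.

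A signal is given below as the log2 of the array signal after quantile normalization over the 6 arrays, and a difference is the log2 fold change of silica over saline with its standard error (SE). Signals of different probes cannot be compared with each other. Probes were called higher or lower when they changed 2-fold or more and limma's p, after Benjamini-Hochberg adjustment, did not exceed 0.05. Gene names were available for 1279 probes, those listed in the study for a change at day 28. The rats of day 14 took no part in that choice, but the names cover genes that respond to silica at the later day, and a count over named genes is not a count over the genome.

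Of 33615 probes tested, 870 were called higher in the silica lungs, which is 2.59% of the probes, and 776 were called lower, which is 2.31%. The 6 arrays of day 14 lay on the same slide, between 64.6% and 69.2% of the probes of an array were well above background, and no probe was saturated. Arrays of the saline group correlated with each other at r between 0.983 and 0.990 over all probes tested, those of the silica group at r between 0.969 and 0.978, and arrays of different groups at r between 0.930 and 0.971. Silica rat 1 stood farthest from the saline rats in 1233 of the 1646 called probes, silica rat 2 in 228 and silica rat 3 in 186, with 1 tie. Without saline rats 1, 2 and 3 the number of called probes was 614, 321 and 361, and without silica rats 1, 2 and 3 it was 1195, 2327 and 1124. Of 109 called genes that were checked singly, among them those named in the text, 39 were also called in each of these 6 fits, and how often a gene was called is given with each group of genes. In every called probe the 3 silica values lay outside the range of the 3 saline values, which was true of 34.4% of all probes tested. Silica rats 1 and 2 lay in the first row of the slide and the other 4 arrays in the second row, and with the row as a block, a fit in which the difference rests on silica rat 3, 64 probes were called higher and 35 lower. With this block 5 macrophage markers, 2 lysosomal genes, 2 cytokine genes and 1 gene of secreted defence of the lists below stayed past the threshold, and none of the other lists. The value within the second row is that of silica rat 3, drawn for every list in the plot of lists by rat. The part of the row in the differences was not tested beyond this.

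**Figure D1:**
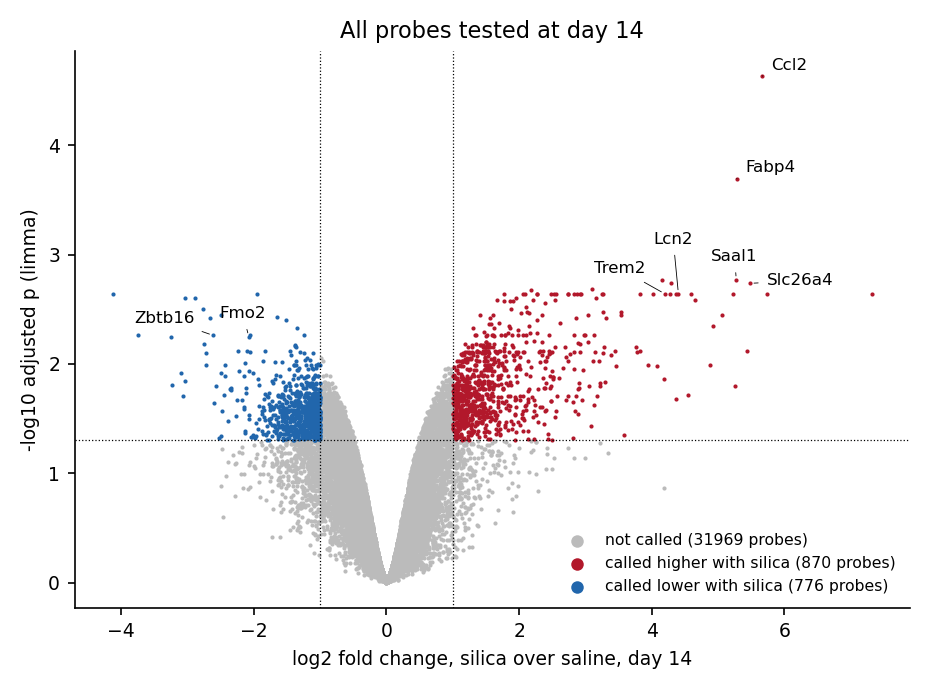
Log2 fold change of silica over saline at day 14 (horizontal axis) against the -log10 of the adjusted p of limma (vertical axis), with a point for each of 33615 probes, in red the 870 probes called higher, in blue the 776 called lower and in grey the rest. The dotted lines mark the thresholds, and Ccl2 and Fabp4 lie above all other labelled genes.

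**Figure D2:**
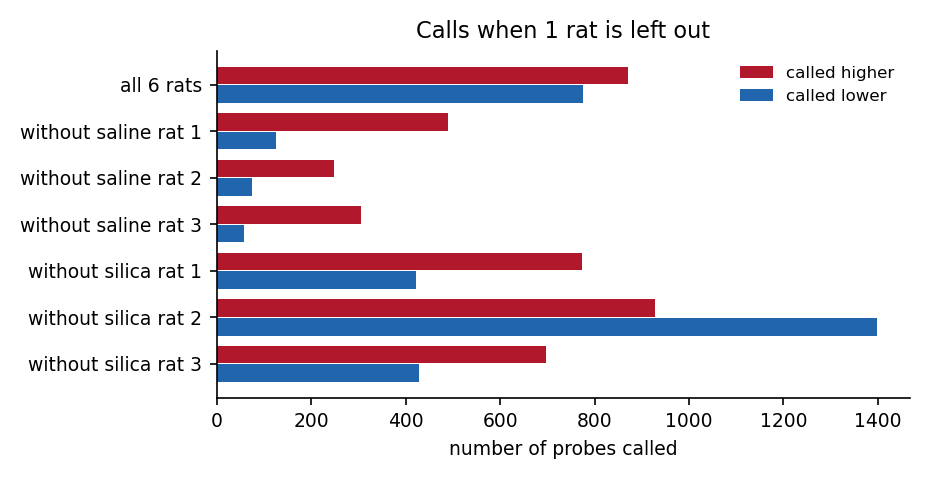
Number of probes called higher (red) and lower (blue) with all 6 rats of day 14 and after leaving out each rat in turn. The bars of calls lower are shortest when a saline rat is left out, with 124, 73 and 57 probes without saline rats 1, 2 and 3.

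Some 1236 named probes were tested, of which 309 were called higher and 201 lower. Taking the brightest probe of each gene, 259 of 1063 named genes were called higher (24.4%) and 168 lower (15.8%), and the median log2 fold change of all named genes was 0.36, beside -0.01 for all probes tested. All genes tested in the lists below are named genes, so the counts of a list are to be read against these shares and not only against those of all probes. These shares mix genes that rose and genes that fell at day 28. Of named genes above 0 at day 28, 46.8% were called higher at day 14, and of those below 0, 32.8% were called lower. The probes of the genes that the results turn on are shown with their 60 bases, as deposited and all in lower case, so that a reader can see which transcript each value stands for.
Ccl2: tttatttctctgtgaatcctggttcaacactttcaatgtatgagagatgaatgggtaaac
Lcn2: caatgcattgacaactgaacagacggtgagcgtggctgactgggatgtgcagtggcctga
Trem2: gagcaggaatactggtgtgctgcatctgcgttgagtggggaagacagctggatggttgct
Gpnmb: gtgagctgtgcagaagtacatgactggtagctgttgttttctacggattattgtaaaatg
Atp6v0d2: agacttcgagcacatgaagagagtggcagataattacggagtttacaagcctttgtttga
Zbtb16: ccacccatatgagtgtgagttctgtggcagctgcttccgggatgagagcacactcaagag
Fmo2: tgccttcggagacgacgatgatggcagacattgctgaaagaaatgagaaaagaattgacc
Plvap: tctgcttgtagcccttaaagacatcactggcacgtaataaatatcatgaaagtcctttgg
RefSeq places these genes, in the same order, on rat chromosomes 10, 3, 9, 4, 5, 8, 13 and 16 of the GRCr8 build.

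Ccl2, Slc26a4, Atp6v0d2, Fabp4 and Saal1 were called higher from probes that were dim in saline lung. Ccl2, Atp6v0d2 and Saal1 have only a bound, so the 5 genes are given in no order. All but Ccl2 and Atp6v0d2, which belong to lists described below, were chosen after their values were seen. Ccl2, the chemokine that recruits monocytes, had log2 signals of 7.01, 7.38 and 7.22 in the silica lungs and 1.52, 1.52 and 1.57 in the saline lungs and was not well above background on any saline array. The silica lungs were at least 11-fold higher (means 7.20 and 1.53, adjusted p = 2.3e-05), the bound being set by the lowest signal on each saline array that was well above background. The 3 silica lungs lay within 0.4 of each other. Ccl2 had the smallest adjusted p of the named genes in this fit, which rests on saline signals that were not well above background. With the normexp background limma gave an adjusted p of 0.00037 for Ccl2 and a smaller one, 0.00019, for Fabp4. Fabp4, a fatty acid carrier of macrophages and fat cells, had signals of 9.11, 8.79 and 9.32 in the silica lungs and 3.96, 3.50 and 3.91 in the saline lungs and was well above background on 1 of the saline arrays (log2 fold change 5.28 ± 0.20 (SE), adjusted p = 0.00020). Slc26a4, the anion exchanger pendrin, had signals of 9.31, 10.17 and 9.36 in the silica lungs and 4.71, 3.79 and 3.90 in the saline lungs (log2 fold change 5.48 ± 0.32 (SE), adjusted p = 0.0018) and was well above background on 2 of the saline arrays. The gene that the array calls Saal1 and RefSeq calls Saa3, an acute-phase serum amyloid, was at least 29.2-fold higher, with signals of 9.23, 8.35 and 8.29 in the silica lungs and 3.72, 3.15 and 3.17 in the saline lungs (adjusted p = 0.0017). Atp6v0d2, a subunit of the proton pump of lysosomes, was at least 17.1-fold higher, with signals of 8.69, 6.90 and 7.94 in the silica lungs and 2.07, 3.62 and 1.53 in the saline lungs (adjusted p = 0.0076). In all 5 genes the lowest silica lung lay above the highest saline lung, as in every probe called higher. With the normexp background, which adds an offset to every signal, the log2 fold changes were 1.79 for Ccl2, 3.02 for Fabp4, 3.39 for Slc26a4, 2.70 for Saal1 and 2.21 for Atp6v0d2. All 5 were also called in each of the 6 fits without 1 rat. In all, 25 named genes were called higher while not well above background on any saline array.

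Where all 6 arrays measured a gene well above background, the 10 largest rises were those of Lcn2, Trem2, Gpnmb, Slc7a11, Bpifb1, Hk3, Itgam, Slc37a2, Pla2g7 and Ccl9. Lcn2, which codes for the iron-siderophore binding lipocalin 2, had signals of 15.13, 16.41 and 15.61 in the silica lungs and 11.43, 10.97 and 11.54 in the saline lungs (log2 fold change 4.40 ± 0.32 (SE), adjusted p = 0.0023). Silica rat 2 was the highest and the groups were far apart. Trem2, a lipid-sensing receptor of macrophages, had signals of 11.08, 10.46 and 10.66 in the silica lungs and 7.25, 6.2 and 6.15 in the saline lungs (log2 fold change 4.20 ± 0.32 (SE), adjusted p = 0.0023). Gpnmb, a transmembrane glycoprotein of lysosome-rich macrophages, had signals of 13.81, 13.21 and 13.47 in the silica lungs and 10.05, 9.30 and 9.07 in the saline lungs (log2 fold change 4.03 ± 0.28 (SE), adjusted p = 0.0023). For both receptors silica rat 1 was the highest and saline rat 1 was the highest of its group. Slc7a11, the cystine importer that feeds glutathione synthesis, had signals of 9.67, 7.64 and 8.01 in the silica lungs and 5.01, 4.17 and 4.32 in the saline lungs (log2 fold change 3.94 ± 0.51 (SE), adjusted p = 0.010). Bpifb1, a secreted protein of the airway lining, had a log2 fold change of 3.83, Hk3, a hexokinase of myeloid cells, one of 3.54, and Itgam, the alpha chain of complement receptor 3, one of 3.39. Slc37a2, a sugar-phosphate transporter of macrophages (3.25), Pla2g7, the secreted platelet-activating factor hydrolase (3.22), and the chemokine gene Ccl9 (3.2) followed, with adjusted p-values of 0.0023, 0.016 and 0.0094. The number of fits, of the 6 that leave out 1 rat, in which the gene was still called was 6 for Lcn2, Trem2, Gpnmb, Bpifb1, Hk3, Slc37a2 and Ccl9, 5 for Slc7a11 and Itgam and 4 for Pla2g7. The normexp background gave smaller log2 fold changes of 2.23 for Slc7a11, 2.31 for Hk3 and 1.87 for Slc37a2. The plot of signals by rat shows silica rat 1 as the lowest silica lung for Ccl2, Cxcl6, Lcn2 and Itgam and as the highest for Atp6v0d2, Saal1, Trem2, Gpnmb and Slc7a11.

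**Figure D3:**
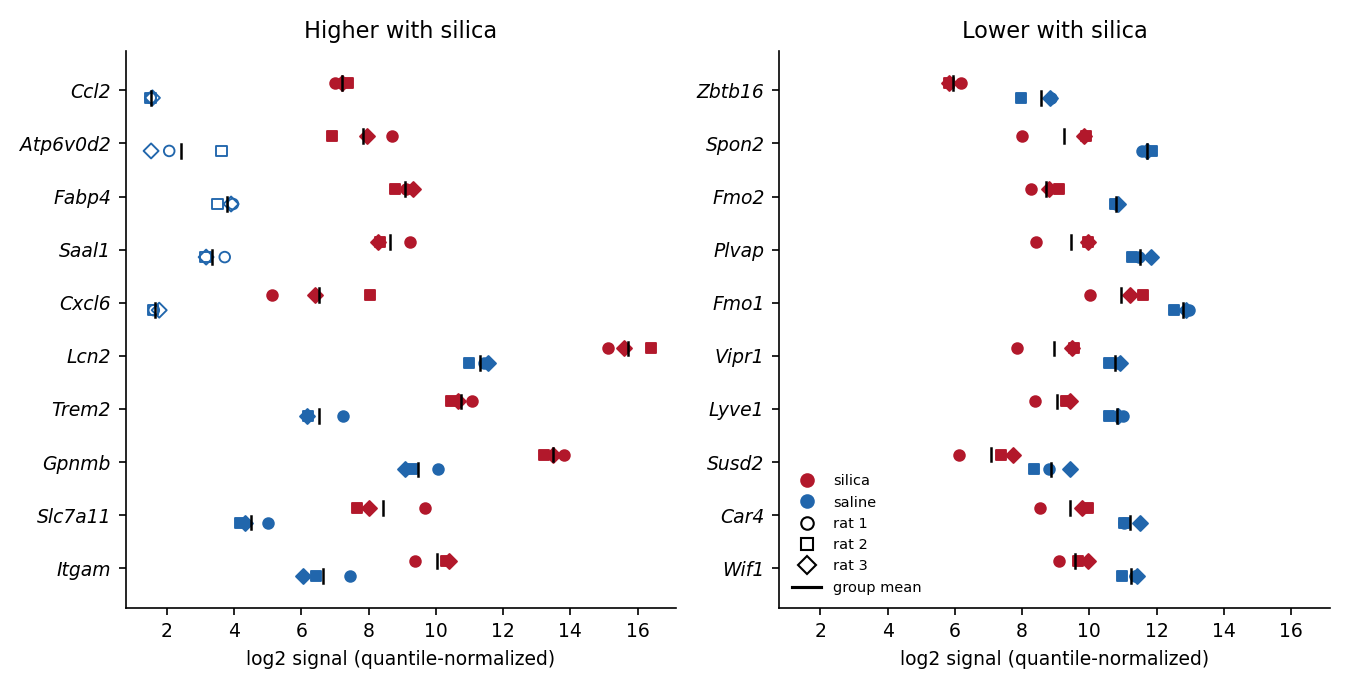
Quantile-normalized log2 signal (horizontal axis) of 10 genes called higher (left) and 10 called lower (right) in each rat at day 14, with silica in red, saline in blue, a symbol for each rat, a black bar at the group mean, and open symbols where not all 3 arrays of the group were well above background. All 20 are called genes, and in every called probe the silica and saline values do not overlap. Silica rat 1 is the lowest lung in all 10 genes on the right but Zbtb16.

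Among named genes that all 6 arrays measured well above background, the 10 largest falls were those of Zbtb16, Spon2, Fmo2, Plvap, Fmo1, Vipr1, Lyve1, Susd2, Car4 and Wif1. Zbtb16, a transcriptional repressor induced by glucocorticoids, had signals of 6.2, 5.83 and 5.82 in the silica lungs and 8.87, 7.96 and 8.84 in the saline lungs (log2 fold change -2.61 ± 0.27 (SE), adjusted p = 0.0055). The 3 silica lungs lay within 0.4 of each other. Spon2, a secreted matrix protein, had signals of 8.01, 9.90 and 9.84 in the silica lungs and 11.57, 11.88 and 11.73 in the saline lungs (log2 fold change -2.48 ± 0.48 (SE), adjusted p = 0.027), with silica rat 1 more than 1.8 below the other silica rats. Fmo2, the flavin-containing monooxygenase of lung, had signals of 8.27, 9.09 and 8.81 in the silica lungs and 10.79, 10.76 and 10.85 in the saline lungs (log2 fold change -2.08 ± 0.21 (SE), adjusted p = 0.0057). Plvap, a component of the diaphragms of endothelial fenestrae and caveolae, had signals of 8.43, 9.98 and 9.95 in the silica lungs and 11.47, 11.26 and 11.82 in the saline lungs (log2 fold change -2.07 ± 0.41 (SE), adjusted p = 0.029). Vipr1, the receptor of vasoactive intestinal peptide, fell by 1.81 on the log2 scale (adjusted p = 0.044), Lyve1, a hyaluronan receptor of lymphatic endothelium, by 1.78 (0.018), and Car4, a carbonic anhydrase on alveolar capillaries, by 1.77 (0.032). Fmo1 fell by 1.85, Susd2 by 1.77 and Wif1, a secreted inhibitor of Wnt signalling, by 1.68, with adjusted p-values of 0.031, 0.049 and 0.014. In 9 of the 10 genes, all but Zbtb16, silica rat 1 was the lowest lung. In the fits without 1 rat that number was 6 for Zbtb16 and Fmo2, 3 for Spon2, Plvap, Lyve1 and Wif1, 2 for Fmo1, Vipr1 and Car4 and 0 for Susd2. Mapt, Myo6 and Bmpr1b were called lower while not well above background on any silica array. Signals were at least 1.91-fold lower for Mapt (silica and saline means 2.06 and 4.82), 1.78-fold for Myo6 (means 2.76 and 4.71) and 1.37-fold for Bmpr1b (means 2.50 and 4.33).

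Most macrophage markers rose. Of 22 tested, 15 were called higher and none lower, beside 2.59% and 2.31% of all probes and 24.4% and 15.8% of named genes, and the median log2 fold change was 1.65. Every one of the 22 was above 0, as at day 14 were 545 of the 551 named genes that lay above 0 at day 28. Of those 551 genes, 46.8% were called higher. Lgals3, the galectin of activated macrophages, had signals of 13.08, 12.66 and 12.78 in the silica lungs and 10.34, 9.72 and 10.24 in the saline lungs (log2 fold change 2.74 ± 0.21 (SE), adjusted p = 0.0023). Capg, a cap protein of actin filaments in phagocytes, had signals of 11.54, 11.10 and 11.14 in the silica lungs and 9.01, 8.51 and 8.85 in the saline lungs (log2 fold change 2.48 ± 0.19 (SE), adjusted p = 0.0023). Cd68, the glycoprotein of macrophage lysosomes by which these cells are usually recognised, had signals of 12.71, 12.03 and 12.08 in the silica lungs and 9.82, 9.04 and 9.40 in the saline lungs (log2 fold change 2.85 ± 0.26 (SE), adjusted p = 0.0038). No silica lung overlapped a saline lung in these 3 genes, as in every called probe. Msr1, the scavenger receptor through which silica particles are bound, had a log2 fold change of 3.12 (adjusted p = 0.024) and was well above background on 1 saline array. Spi1, the transcription factor PU.1 of the myeloid lineage, rose by 1.1 (adjusted p = 0.021). Aif1, a calcium-binding protein present in most macrophages, had 1.27, adjusted p = 0.10, and Fcer1g, the common chain of Fc receptors, 0.73, adjusted p = 0.076, so that neither was called. Cd14 and Laptm5 are also counted in the lists of pathogen sensing and lysosomes. The medians over the list in silica rats 1, 2 and 3 were 2.38, 1.33 and 1.27 above the saline mean. Without saline rats 1, 2 and 3 the number called higher was 12, 7 and 6, and without silica rats 1, 2 and 3 it was 14, 16 and 14. With the normexp background 9 were called higher, the median was 1.07 and Msr1 was at 0.90. By gene, the number of these 6 fits with the call was 6 for Lgals3, Capg and Cd68, 5 for Msr1 and 2 for Spi1. Since RNA came from whole lung, more macrophages and more of these transcripts in each macrophage cannot be told apart, and the same holds for the groups that follow.

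Most lysosomal genes rose as well. Of 19 hydrolases and partner proteins, 15 were called higher and 1, Hyal1, was called lower, beside 24.4% and 15.8% of named genes. Of named genes above 0 at day 28, 46.8% were called higher. The list median was 1.49, with 1.77, 1.26 and 1.22 in silica rats 1, 2 and 3. Ctsd, the aspartic protease cathepsin D, had signals of 12.13, 12.33 and 12.18 in the silica lungs and 10.23, 9.85 and 10.27 in the saline lungs (log2 fold change 2.10 ± 0.16 (SE), adjusted p = 0.0023). Pld3, a lysosomal exonuclease of single-stranded nucleic acids, had signals of 12.30, 11.76 and 11.82 in the silica lungs and 9.86, 9.67 and 9.72 in the saline lungs (log2 fold change 2.21 ± 0.18 (SE), adjusted p = 0.0026). Npc2, which hands cholesterol out of the lysosome, had signals of 13.19, 13.30 and 13.25 in the silica lungs and 11.83, 11.48 and 11.62 in the saline lungs (log2 fold change 1.60 ± 0.14 (SE), adjusted p = 0.0035). The silica lungs lay within 0.6 of each other in all 3 genes. Ctsz rose by 2.11 (adjusted p = 0.0054). Ctsk, the collagen-degrading cathepsin of osteoclasts and activated macrophages, was not well above background on any saline array and was at least 2.40-fold higher (means 5.0 and 2.05, adjusted p = 0.021). Psap, the precursor of the saposins (0.92, adjusted p = 0.031), Laptm5 (0.92, adjusted p = 0.027) and Neu1 (0.73, adjusted p = 0.036) passed the adjusted p with a fold change under 2, although the other probe of Psap, at 1.18, was called higher. Ctsk was at 0.58 with the normexp background. Hyal1, a hyaluronidase, had signals of 7.58, 8.60 and 8.42 in the silica lungs and 9.32, 9.34 and 9.19 in the saline lungs (log2 fold change -1.08 ± 0.26 (SE), adjusted p = 0.046). The number of lysosomal genes called higher was 10, 6 and 6 without saline rats 1, 2 and 3 and 13, 16 and 13 without silica rats 1, 2 and 3. The number of these fits that called the gene was 6 for Ctsd, Pld3, Npc2 and Ctsz, 4 for Ctsk and 1 for Hyal1.

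Of 5 subunits of the vacuolar proton pump, which acidifies lysosomes, 3 were called higher. Among named genes 24.4% were called higher, and among those above 0 at day 28 46.8%. The 3 subunits called were Atp6v0d2, the catalytic subunit gene Atp6v1a (1.25, adjusted p = 0.011) and Tcirg1 (1.18, adjusted p = 0.035). Atp6v0c (0.95, adjusted p = 0.014) and Atp6v1c1 (0.69, adjusted p = 0.051) were not called by their brightest probe, and the other probe of Atp6v0c, at 1.13, was called higher. Of the phagocyte oxidase, the enzyme complex of the respiratory burst, 3 genes of the list were tested and 1 was called higher. This count is to be read against the same shares of named genes. The gene called was Ncf4, a cytosolic subunit (1.05, adjusted p = 0.019), whereas Rac2, a small GTPase of the complex, had 0.57, adjusted p = 0.11. Of the 6 fits without 1 rat, the number with the call was 6 for Atp6v1a, 3 for Ncf4 and 1 for Tcirg1.

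The upstream sequences of 4 of these genes are printed because they hold short motifs of factors that are studied in macrophages and lysosomes. Of 299 list genes with a name, 214 had a promoter in the RefSeq table (build GRCr8, 250 bases before to 50 after the start of the gene), and 5 motifs were searched on both strands. The AP-1 motif TGANTCA was found in 7.33% of all 33469 promoters of this length and in 3 of the 14 macrophage markers that have one, namely Gpnmb, Trem2 and Cd68. In Trem2 the base at N is A. The motif was also found in 4 of 15 complement and coagulation genes and 2 of 9 interferon genes, and in 0 of 12 endothelial markers. It is therefore not particular to the macrophage list. The CLEAR core TCACGTGA, which contains the E-box CACGTG, was found in 0.777% of all promoters and in 1 of the 16 lysosomal genes that have one, Ctsd. It was also found in 1 of 14 macrophage markers and 1 of 15 complement and coagulation genes, and in 0 of 12 endothelial markers. The E-box itself was found in 6.42%, the antioxidant response core TGACNNNGC in 12.1% and the NF-kappaB motif in 4.18% of all promoters. These 4 genes were chosen after the motifs were searched. The sequences run from 120 bases before the start, or 220 for Cd68, to 20 bases after it, with the motif in capitals.
Gpnmb: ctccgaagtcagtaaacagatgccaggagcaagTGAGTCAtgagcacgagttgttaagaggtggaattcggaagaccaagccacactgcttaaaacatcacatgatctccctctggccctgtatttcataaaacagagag
Trem2: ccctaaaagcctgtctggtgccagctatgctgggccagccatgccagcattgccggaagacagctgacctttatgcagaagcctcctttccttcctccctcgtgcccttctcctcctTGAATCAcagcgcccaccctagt
Cd68: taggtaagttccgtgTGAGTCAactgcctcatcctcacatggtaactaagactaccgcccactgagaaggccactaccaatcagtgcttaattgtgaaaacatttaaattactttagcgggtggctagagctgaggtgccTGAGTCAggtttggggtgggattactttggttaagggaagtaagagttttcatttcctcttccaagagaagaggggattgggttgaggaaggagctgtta
Ctsd: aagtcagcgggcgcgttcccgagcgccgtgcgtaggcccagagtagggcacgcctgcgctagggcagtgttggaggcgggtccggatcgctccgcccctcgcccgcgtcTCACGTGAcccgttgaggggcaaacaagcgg
The stretches lie at chr4:79341008-79341147 on the plus strand for Gpnmb, chr9:20151760-20151899 on the minus strand for Trem2, chr10:54882422-54882661 on the minus strand for Cd68 and chr1:206968802-206968941 on the minus strand for Ctsd. A match describes the letters and nothing was measured on the binding of a factor.

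The attractants Ccl2, Ccl3, Ccl9 and Cxcl6 rose, whereas several other chemokine genes were not called. Of 24 genes of cytokines, chemokines and their receptors, 12 were called higher and none lower, beside 24.4% and 15.8% of named genes. Of named genes above 0 at day 28, 46.8% were called higher. The list median was 1.60 (1.55 with genes that are below background in saline lung at their bound). Beside Ccl2 and Ccl9, Cxcl6, a neutrophil attractant, had signals of 5.14, 8.05 and 6.41 in the silica lungs and 1.61, 1.58 and 1.77 in the saline lungs and was at least 6.93-fold higher (adjusted p = 0.010). The silica lungs differed by almost 3 among themselves here. The chemokine genes Ccl12 (0.87, adjusted p = 0.031), Ccl4 (0.81, adjusted p = 0.055) and Ccl24 (0.27, adjusted p = 0.34) were not called. Ccl3, an attractant of monocytes, was at least 2.51-fold higher (means 5.07 and 2.15, adjusted p = 0.0078). Tnf, the cytokine released by macrophages that have taken up silica, had signals of 6.83, 6.92 and 7.29 in the silica lungs and 5.51, 5.27 and 5.57 in the saline lungs (log2 fold change 1.56 ± 0.17 (SE), adjusted p = 0.0069). Csf2rb, the common receptor chain for granulocyte-macrophage colony-stimulating factor, rose (1.68, adjusted p = 0.010), as did Gdf15, a stress cytokine (1.78, adjusted p = 0.011). Cxcl9, a chemokine induced by interferon gamma, had signals of 11.74, 8.21 and 8.16 in the silica lungs and 7.80, 7.80 and 7.6 in the saline lungs, with silica rat 1 more than 3 above every other lung (log2 fold change 1.64 ± 0.88 (SE), adjusted p = 0.28). Il33, an alarmin of epithelium and endothelium, had -1.25, adjusted p = 0.061. The medians of the list in silica rats 1, 2 and 3 were 1.93, 1.19 and 1.27. The normexp background gave 8 calls higher, a list median of 0.75 and log2 fold changes of 1.5 for Cxcl6, 0.54 for Ccl3 and 0.87 for Tnf. Called higher were 8, 4 and 7 genes of the list without saline rats 1, 2 and 3 and 11, 12 and 8 without silica rats 1, 2 and 3. The fits with the call numbered 6 for Ccl2, Ccl9, Tnf and Csf2rb and 5 for Cxcl6, Ccl3 and Gdf15.

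Of 15 receptors and adaptors of pathogen sensing, 3 were called higher and none lower, beside 24.4% and 15.8% of named genes, with a median of 0.74 (0.44 with the normexp background). The medians in silica rats 1, 2 and 3 were 1.14, 0.48 and 0.54. Those called were Tmem173, the gene of the nucleotide sensor STING (1.59, adjusted p = 0.0054), the lipopolysaccharide co-receptor Cd14 (1.87, adjusted p = 0.024) and Ly96 (1.05, adjusted p = 0.035), which codes for the partner of Toll-like receptor 4. Tmem173 had signals of 9.43, 9.68 and 9.28 in the silica lungs and 7.87, 8.02 and 7.72 in the saline lungs. Nlrp3, the sensor of the inflammasome that silica activates, had 0.74, adjusted p = 0.062, its adaptor Pycard 0.23, adjusted p = 0.59 and Tlr7 0.90, adjusted p = 0.19, none of them called. Of 16 genes of leukocyte adhesion and signalling, 5 were called higher, beside 24.4% of named genes. The 5 were Itgam, Pstpip1 (1.03, adjusted p = 0.019), Parvg (1.41, adjusted p = 0.021), Fermt3 (1.04, adjusted p = 0.028) and Cotl1 (1.34, adjusted p = 0.028). Itgam had signals of 9.39, 10.30 and 10.40 in the silica lungs and 7.46, 6.42 and 6.05 in the saline lungs, while Itgb2, which codes for the beta chain that pairs with it, had 9.66, 9.21 and 9.09 in the silica lungs and 8.58, 7.93 and 8.53 in the saline lungs (log2 fold change 0.98 ± 0.23 (SE), adjusted p = 0.044), a fold change under 2. Parvg was at 0.67 with the normexp background. Over the 6 fits without 1 rat, the number with the call was 6 for Tmem173, 5 for Itgam, 4 for Cd14 and Parvg, 2 for Pstpip1 and Cotl1 and 1 for Ly96 and Fermt3.

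Of 12 genes of the interferon response, 2 were called higher and none lower, beside 24.4% and 15.8% of named genes, with a median of 0.58. The median was 0.20 without silica rat 1 and 0.27 with the slide row as a block, and 1.21, 0.10 and 0.27 in silica rats 1, 2 and 3. Cd274, the ligand of the PD-1 checkpoint, had signals of 8.22, 8.28 and 8.11 in the silica lungs and 6.91, 6.60 and 7.04 in the saline lungs (log2 fold change 1.36 ± 0.16 (SE), adjusted p = 0.0077). Ubd, a ubiquitin-like modifier induced by interferon gamma, had signals of 9.37, 6.69 and 6.67 in the silica lungs and 4.62, 4.12 and 4.73 in the saline lungs (log2 fold change 3.08 ± 0.69 (SE), adjusted p = 0.037), with silica rat 1 far above the others. Usp18, a target of type I interferon, had 0.70, adjusted p = 0.096 and Ifit2, another, -0.37, adjusted p = 0.34. Cd274 was called in all 6 fits without 1 rat and Ubd in 3, and with the normexp background Ubd was at 1.64.

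Complement and coagulation genes changed in both directions. Of 20 tested, 9 were called higher and 3 lower, beside 24.4% and 15.8% of named genes. In silica rats 1, 2 and 3 the medians were 1.37, 1.05 and 0.95. Cfi, the protease that inactivates C3b, had signals of 10.06, 10.74 and 10.24 in the silica lungs and 8.09, 7.88 and 7.89 in the saline lungs (log2 fold change 2.39 ± 0.20 (SE), adjusted p = 0.0028). C4bpa, a regulator of C4b, had signals of 8.21, 9.60 and 9.03 in the silica lungs and 6.47, 5.89 and 6.28 in the saline lungs (log2 fold change 2.73 ± 0.35 (SE), adjusted p = 0.0095). In both genes the silica rat with the highest signal was rat 2. The urokinase receptor gene Plaur (1.2, adjusted p = 0.0095) and Cfb of the alternative pathway (1.15, adjusted p = 0.021) rose as well. The 3 genes called lower were Vtn, which codes for vitronectin (-1.35, adjusted p = 0.024), Tfpi, the inhibitor of the tissue factor pathway (-1.21, adjusted p = 0.026), and Thbd, the anticoagulant thrombomodulin of endothelium (-1.34, adjusted p = 0.042). Of 11 genes of secreted defence and the acute phase, 3 were called higher, beside 24.4% of named genes. They were Lcn2, Bpifb1 and Lpo. The medians of this list in silica rats 1, 2 and 3 were 1.25, 1.43 and 1.2. Bpifb1 had signals of 10.95, 12.04 and 11.36 in the silica lungs and 6.79, 7.65 and 8.42 in the saline lungs (log2 fold change 3.83 ± 0.44 (SE), adjusted p = 0.0076), and Lpo, the peroxidase of airway secretions, 8.70, 10.49 and 9.20 in the silica lungs and 6.62, 7.28 and 7.06 in the saline lungs (log2 fold change 2.48 ± 0.44 (SE), adjusted p = 0.022). In all 3 genes silica rat 2 was the highest and silica rat 1 the lowest silica lung. Defb4, a defensin, had 1.94, adjusted p = 0.073 and Serpina1, alpha-1 antitrypsin, -1.32, adjusted p = 0.20. Thbd and Vwf are also counted among the endothelial markers. Without saline rat 2 the complement list had 1 gene called higher and without saline rat 3 it had 2. Among the fits without 1 rat, the call was made in 6 for Cfi, Lcn2 and Bpifb1, 5 for C4bpa, 4 for Plaur, 3 for Tfpi and Lpo, 2 for Cfb and Vtn and 1 for Thbd.

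Antioxidant genes and genes of glucose use rose in part. Of 15 antioxidant and iron-handling genes, 7 were called higher and 2 lower, beside 24.4% and 15.8% of named genes. Of named genes above 0 at day 28, 46.8% were called higher, a share that also stands beside the glycolysis genes below. The medians of the antioxidant list in silica rats 1, 2 and 3 were 1.13, 0.77 and 0.84. Srxn1, which repairs oxidised peroxiredoxins, had signals of 6.82, 5.93 and 6.16 in the silica lungs and 3.85, 3.04 and 3.11 in the saline lungs (log2 fold change 2.97 ± 0.30 (SE), adjusted p = 0.0054) and was well above background on 1 saline array. Hmox1, the haem oxygenase, had signals of 11.73, 11.20 and 11.05 in the silica lungs and 9.39, 8.65 and 9.63 in the saline lungs (log2 fold change 2.10 ± 0.29 (SE), adjusted p = 0.012). Pgd of the pentose phosphate pathway (1.44, adjusted p = 0.0080) and the ferritin light chain gene Ftl1 (1.38, adjusted p = 0.014) rose as well, whereas the glutathione transferase genes Gstm7 (-1.39, adjusted p = 0.023) and Gstm2 (-1.19, adjusted p = 0.042) fell. Nfe2l2, the regulator of many of these genes, had 0.66, adjusted p = 0.060. Of 7 glycolysis genes, 4 were called higher, namely Hk3, the lactate transporter gene Slc16a1 (1.12, adjusted p = 0.010), the glucose transporter gene Slc2a1 (1.38, adjusted p = 0.019) and Eno1 (1.11, adjusted p = 0.019). Gapdh (0.85, adjusted p = 0.024) and Pkm (0.67, adjusted p = 0.029) passed the adjusted p with a fold change under 2 by their brightest probe. The 7 probes of Gapdh ranged from 0.85 to 1.09, and some of them were called higher. With the normexp background the log2 fold changes were smaller, with 1.01 for Srxn1, 0.71 for Slc16a1 and -0.85 for Gstm7. The signals of Hk3 were 9.26, 8.06 and 8.64 in the silica lungs and 5.32, 4.78 and 5.22 in the saline lungs. When 1 rat was left out, the number of fits with the call, of 6, was 6 for Srxn1, Hmox1, Pgd and Hk3, 4 for Ftl1 and Slc16a1, 3 for Gstm7 and Slc2a1, 2 for Eno1 and 1 for Gstm2.

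Some genes of dividing cells and of lymphocytes rose too. All 28 cell cycle genes tested were above 0, as were 545 of the 551 named genes above 0 at day 28. Of the 28, 11 were called higher, beside 46.8% of those 551, with a median of 0.97. With the normexp background 2 were called higher and the median was 0.42. Rrm2, a subunit of ribonucleotide reductase, had signals of 7.86, 7.95 and 8.0 in the silica lungs and 6.58, 6.2 and 6.30 in the saline lungs (log2 fold change 1.58 ± 0.15 (SE), adjusted p = 0.0043), while its other probe, at 1.54, was not called. Mki67, the proliferation antigen Ki-67, had signals of 10.87, 10.54 and 10.57 in the silica lungs and 9.72, 9.46 and 9.27 in the saline lungs (log2 fold change 1.18 ± 0.17 (SE), adjusted p = 0.014). The cell cycle list varied little among the silica rats, with medians of 1.05, 0.98 and 0.85. Of 9 lymphocyte markers, 4 were called higher and none lower, beside 24.4% and 15.8% of named genes and 46.8% called higher among those above 0 at day 28. The 4 were Mzb1 of plasma cells (1.62, adjusted p = 0.0055), Irf4 (1.01, adjusted p = 0.013), Batf (1.75, adjusted p = 0.017) and the T cell costimulator gene Icos (1.29, adjusted p = 0.025). Bank1 of B cells had -1.56, adjusted p = 0.081. Mzb1 had signals of 8.37, 8.48 and 8.36 in the silica lungs and 6.98, 6.89 and 6.47 in the saline lungs. Of 3 mast cell markers, Mrgprx2 was called higher, at least 2.90-fold (means 5.28 and 2.05, adjusted p = 0.015), while the protease gene Mcpt1l1 had 2.49, adjusted p = 0.091. The number of cell cycle genes called higher was 10, 5 and 3 without saline rats 1, 2 and 3 and 10, 11 and 13 without silica rats 1, 2 and 3. The median of the mast cell markers was 0.70 in place of 2.49, Batf was at 0.69 and Mrgprx2 at 0.70 with the normexp background. For single genes the fits with the call numbered 6 for Rrm2 and Mzb1, 5 for Batf, 4 for Mki67 and Mrgprx2, 3 for Icos and 1 for Irf4.

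**Figure D4:**
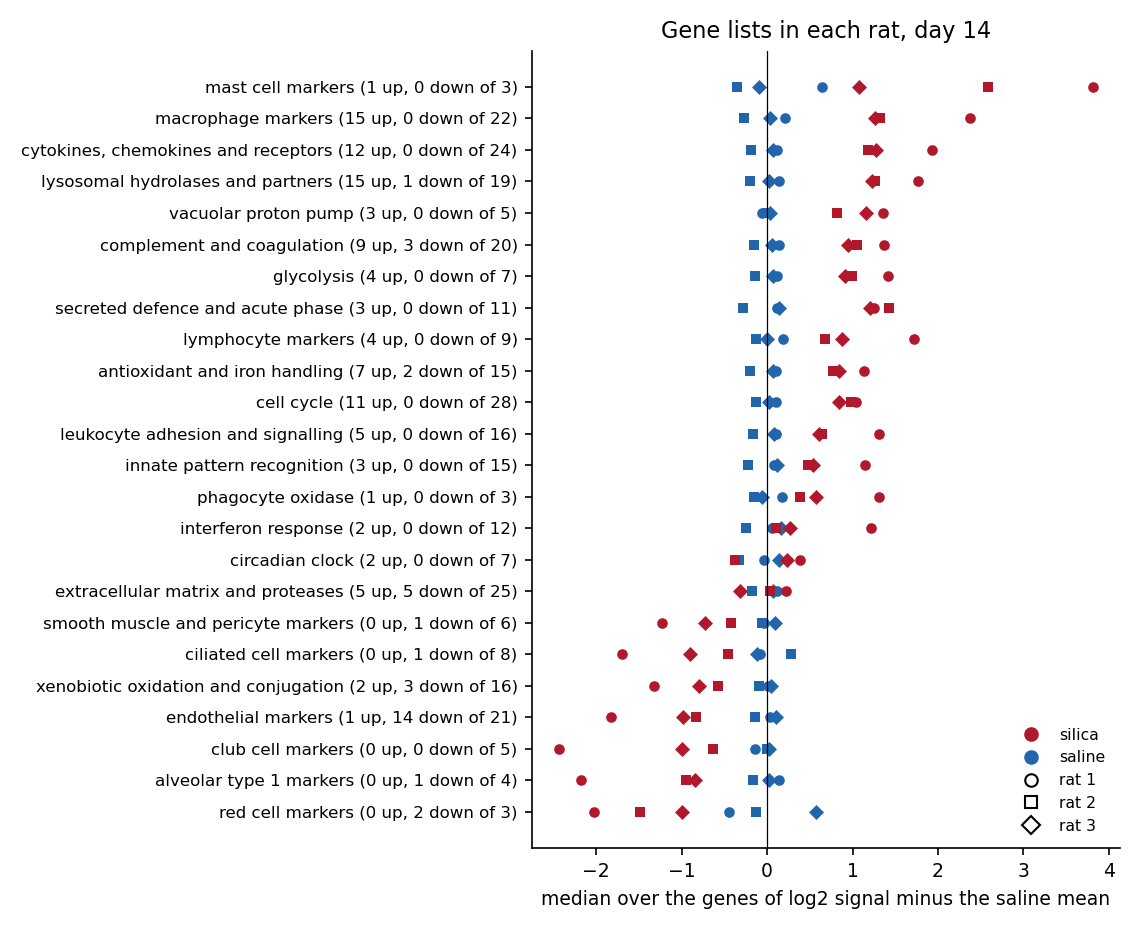
Median over the genes of each list of the log2 signal minus the mean of the 3 saline rats (horizontal axis), for each rat at day 14, with silica in red and saline in blue, and the counts of genes called higher and lower of those tested in the axis labels. The silica rats lie to the right for macrophage markers (15 of 22 called higher) and to the left for endothelial markers (14 of 21 called lower), and silica rat 1 lies farthest from 0 among the silica rats in 22 of the 24 lists.

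Matrix genes were called in both directions, at shares near those of all named genes. Of 25 genes of the extracellular matrix and its proteases, 5 were called higher and 5 lower, and the median was 0.03. Among all named genes 24.4% were called higher and 15.8% lower. The sign of this median was not stable, since it was -0.19 without saline rat 2, 0.59 without silica rat 3, -0.32 with the slide row as a block and 0.52 over probes well above background on all arrays. The medians in silica rats 1, 2 and 3 were 0.22, 0.03 and -0.32. Thbs2, a matricellular protein of remodelling tissue, had signals of 7.93, 7.46 and 6.82 in the silica lungs and 4.54, 3.81 and 4.49 in the saline lungs (log2 fold change 3.12 ± 0.32 (SE), adjusted p = 0.0055). Mmp14, a membrane-bound collagenase, had signals of 9.57, 9.27 and 9.16 in the silica lungs and 8.06, 7.72 and 7.71 in the saline lungs (log2 fold change 1.5 ± 0.17 (SE), adjusted p = 0.0076). Tgfbr1, a receptor of transforming growth factor beta, had signals of 10.84, 10.48 and 10.35 in the silica lungs and 9.15, 8.63 and 8.92 in the saline lungs (log2 fold change 1.66 ± 0.19 (SE), adjusted p = 0.0078). Mmp19 and the proteoglycan gene Vcan were the other 2 called higher (1.05 and 1.07), and a further probe of Vcan, at 0.75, was not called. Tgfbr3, the betaglycan co-receptor (-1.1, adjusted p = 0.015), Reck, a membrane inhibitor of metalloproteinases (-1.19, adjusted p = 0.020), the matrix glycoprotein gene Efemp1 (-1.64, adjusted p = 0.034), the laminin chain gene Lama2 (-1.16, adjusted p = 0.039) and Thbs4 (-1.09, adjusted p = 0.029) were called lower. Col1a1, the main chain of fibrillar collagen and a usual readout of fibrosis, had signals of 10.52, 9.62 and 9.35 in the silica lungs and 9.30, 9.13 and 9.29 in the saline lungs (log2 fold change 0.59 ± 0.29 (SE), adjusted p = 0.24), and silica rat 3 lay less than 0.1 above the highest saline rat. Timp1 had 0.79, adjusted p = 0.036, a fold change under 2, and Mmp9, a gelatinase of neutrophils and macrophages, 1.92, adjusted p = 0.081. The silica lungs were at 8.16, 6.03 and 6.85 for Mmp9. The number of matrix genes called lower was 0, 1 and 0 without saline rats 1, 2 and 3 and 1, 8 and 2 without silica rats 1, 2 and 3. With the normexp background the log2 fold changes were 1.55 for Thbs2, 0.65 for Vcan and -0.33 for Thbs4. For single genes, the number of these fits with the call was 6 for Thbs2, Mmp14 and Tgfbr1, 3 for Mmp19, 2 for Vcan, Tgfbr3, Reck, Efemp1 and Thbs4 and 1 for Lama2.

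Most endothelial markers fell. Of 21 tested, 14 were called lower and 1, Cd300lg, higher. Among all probes 2.31% were called lower and 2.59% higher, and among named genes 15.8% and 24.4%. The list median was -1.14. Of named genes below 0 at day 28, 32.8% were called lower at day 14, and their median was -1.01. Sox18, a transcription factor of vessels, had signals of 9.28, 9.84 and 9.81 in the silica lungs and 10.59, 10.71 and 10.99 in the saline lungs (log2 fold change -1.12 ± 0.20 (SE), adjusted p = 0.022). Cdh5, the cadherin of endothelial junctions, had signals of 12.40, 13.18 and 12.82 in the silica lungs and 14.11, 13.68 and 14.05 in the saline lungs (log2 fold change -1.14 ± 0.23 (SE), adjusted p = 0.029). The 3 silica lungs of both genes lay below all 3 saline lungs, as in every probe called lower. Ace, the angiotensin-converting enzyme of lung capillaries, had signals of 10.95, 12.25 and 11.78 in the silica lungs and 13.19, 13.04 and 13.24 in the saline lungs (log2 fold change -1.5 ± 0.31 (SE), adjusted p = 0.031). Tek, the angiopoietin receptor, had signals of 7.62, 8.85 and 8.92 in the silica lungs and 9.94, 9.90 and 9.89 in the saline lungs (log2 fold change -1.45 ± 0.33 (SE), adjusted p = 0.041). In all 4 genes silica rat 1 was the lowest. Vwf, the von Willebrand factor, had -1.07, adjusted p = 0.13 and was not called. Cd300lg, a sialomucin of capillary and venular endothelium, had signals of 7.37, 6.41 and 7.34 in the silica lungs and 5.28, 5.84 and 5.62 in the saline lungs (log2 fold change 1.46 ± 0.29 (SE), adjusted p = 0.028) and was at 0.81 with the normexp background. The medians in silica rats 1, 2 and 3 were -1.83, -0.84 and -0.99. Leaving out saline rat 1, 2 or 3 left 0 markers called lower, leaving out silica rats 1, 2 and 3 left 8, 18 and 2, while the median lay between -1.38 and -0.94 in these 6 fits. By gene, the call was kept in 2 of these 6 fits for Sox18, Ace and Tek and in 1 for Cdh5 and Cd300lg. The macrophage list rose in the same lungs, with the medians given above, and its part in the lower share of endothelial transcripts was not tested.

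Most markers of the other resident cells did not pass the test. Epithelial markers such as Aqp5 and Cyp2f4 were well above background on all 6 arrays. The 4 alveolar type 1 markers had log2 fold changes of -1.57 for Cav1, -1.42 for Rtkn2, -1.22 for Clic5 and -0.96 for the water channel gene Aqp5, and by the brightest probe Cav1, the caveolin that endothelium expresses as well, was called (adjusted p = 0.029). The other probe of Clic5, at -1.41, was called lower too. Aqp5 had signals of 10.58, 11.79 and 11.94 in the silica lungs and 12.42, 12.08 and 12.70 in the saline lungs. None of 5 club cell markers was called. All 5 were below 0, as at day 14 were 498 of the 512 named genes that lay below 0 at day 28. Of those 512 genes, 32.8% were called lower. Cyp2f4 had -1.19, adjusted p = 0.17, and Aldh1a1 had -1.51, adjusted p = 0.055. Of 8 ciliated cell markers 1 was called, Tppp3 (-1.58, adjusted p = 0.037), with a list median of -0.97, or -0.49 under the normexp background, and of 6 smooth muscle and pericyte markers 1, Synm (-1.14, adjusted p = 0.041). Silica rat 1 lay far below the other silica rats in these lists, with medians in silica rats 1, 2 and 3 of -2.44, -0.64 and -0.99 for club cells and -2.18, -0.95 and -0.84 for type 1 cells. Of 3 red cell markers, the haemoglobin genes Hbb-b1 and Hbe2 were called lower, and the spectrin gene Sptb had 0.10, adjusted p = 0.85. Hbe2 had signals of 10.98, 11.49 and 11.92 in the silica lungs and 12.56, 12.88 and 13.57 in the saline lungs (log2 fold change -1.54 ± 0.32 (SE), adjusted p = 0.032), and Hbb-b1 had 11.88, 12.53 and 13.02 in the silica lungs and 13.60, 13.76 and 14.68 in the saline lungs (log2 fold change -1.54 ± 0.37 (SE), adjusted p = 0.044). The part of blood left in the lung in these values was not tested. Of the 6 fits without 1 rat, those with the call numbered 2 for Cav1, Tppp3 and Synm, 1 for Hbe2 and 0 for Hbb-b1.

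Of 16 genes of xenobiotic oxidation and conjugation, 3 were called lower and 2 higher, beside 15.8% and 24.4% of named genes. Of named genes below 0 at day 28, 32.8% were called lower. The list median was -0.98 (-0.64 without silica rat 1). The medians in silica rats 1, 2 and 3 were -1.32, -0.57 and -0.80. All 5 club cell markers belong to this list too. Beside Fmo2 and Fmo1, the monooxygenases named above, Cyp2e1 fell (-1.31, adjusted p = 0.030). Tpmt, a methyltransferase of thiopurines, rose (1.49, adjusted p = 0.0080). Fmo1 had signals of 10.03, 11.59 and 11.21 in the silica lungs and 12.98, 12.53 and 12.87 in the saline lungs, and Tpmt had 8.88, 8.43 and 8.55 in the silica lungs and 7.09, 6.96 and 7.35 in the saline lungs. Of 7 clock genes, the repressor genes Bhlhe41 and Bhlhe40 were called higher and none lower, beside 24.4% and 15.8% of named genes. Bhlhe41 had signals of 11.67, 10.52 and 10.75 in the silica lungs and 8.54, 7.27 and 7.79 in the saline lungs (log2 fold change 3.11 ± 0.39 (SE), adjusted p = 0.0095), and Bhlhe40 9.51, 8.66 and 8.97 in the silica lungs and 7.73, 7.53 and 8.05 in the saline lungs (log2 fold change 1.28 ± 0.24 (SE), adjusted p = 0.027). Nr1d1, the repressor at the core of the clock, had signals of 8.15, 6.74 and 8.92 in the silica lungs and 8.56, 8.13 and 9.56 in the saline lungs (log2 fold change -0.81 ± 0.58 (SE), adjusted p = 0.42), and silica and saline lungs overlapped. The hours at which the lungs were taken are not in the labels. The call was kept, of the 6 fits without 1 rat, in 6 for Fmo2 and Tpmt, 5 for Bhlhe41, 2 for Fmo1 and Bhlhe40 and 1 for Cyp2e1.

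The response at day 14 was set beside that at day 28 in a fit over all 12 arrays, in which the silica and saline rats of each day are different animals. In that fit 1926 of 34097 probes were called at day 14 (5.65%) and 3322 at day 28 (9.74%). Of the calls of day 14, 74.9% were also called in the same direction at day 28, and of the calls of day 28, 43.4% were also called at day 14. The calls of named genes that follow are those of the separate fit over the 6 arrays of day 14. Of the named genes that lay above 0 at day 28, 258 of 551 were called higher at day 14 (46.8%) and none lower, and 545 lay above 0 at day 14 as well. Of 512 named genes below 0 at day 28, 168 were called lower at day 14 (32.8%) and 1 higher. In the fit over 12 arrays the median log2 fold change was 1.08 at day 14 and 1.51 at day 28 for the first of these sets. For the second it was -1.01 at day 14 and -1.26 at day 28. Since the named genes were chosen for their change at day 28, no order of the 2 days is read from these medians. All silica arrays of day 28 and 1 saline array of that day lay on another slide than the other 8 arrays, so slide and day cannot be told apart for the silica arrays.

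**Figure D5:**
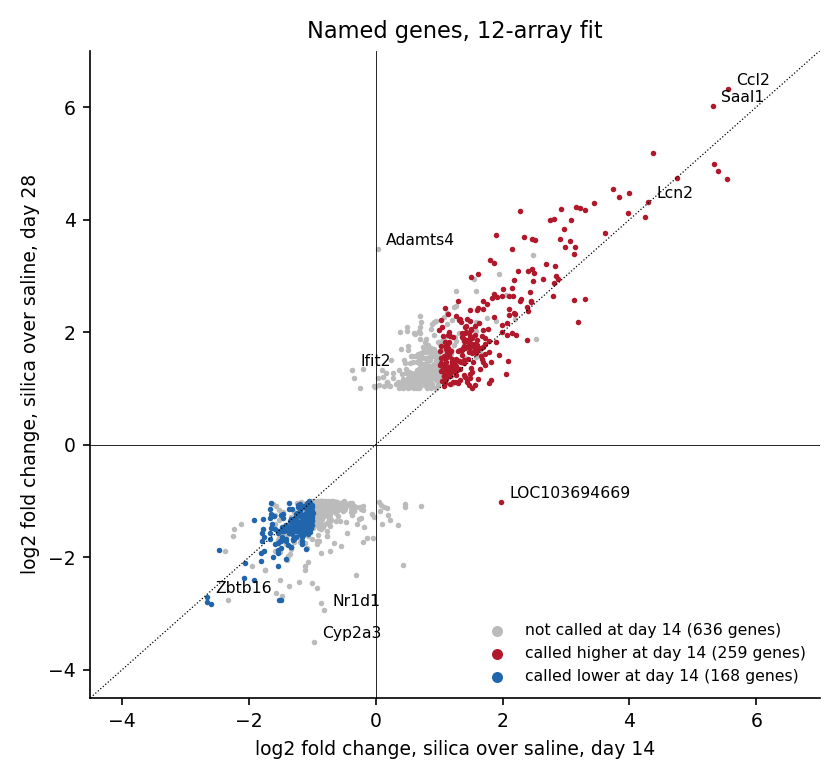
Log2 fold change of silica over saline at day 14 (horizontal axis) against that at day 28 (vertical axis), both from the fit over 12 arrays, with a point for the brightest probe of each of 1063 named genes, in red the 259 called higher and in blue the 168 called lower at day 14. The dotted line marks equal changes, the named genes were chosen for a change at day 28 and none lies near 0 on the vertical axis, and LOC103694669 is the red point at 1.97 and -1.03.

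The test of the difference between the days, an interaction of silica and day, called no probe in limma, with a smallest adjusted p of 0.057 and 3387 probes at an unadjusted p under 0.05 (9.93% of those tested). Among named genes LOC103694669 came closest to the threshold, with a log2 fold change of 1.97 at day 14 and -1.03 at day 28 (adjusted p = 0.093 in limma). The day 14 value was 0.33 with the normexp background. Its signals at day 14 were 4.95, 4.50 and 4.12 in the silica lungs and 2.67, 2.79 and 2.05 in the saline lungs, so that the probe was not well above background on any saline array and the silica lungs were at least 1.72-fold higher. Kcna5, a potassium channel gene (0.70 at day 14 and -1.09 at day 28), Apba2 (-0.06 at day 14 and -1.23 at day 28), Scgb2b2 (0.19 at day 14 and -1.24 at day 28) and the olfactory receptor gene Olr1347 (0.18 at day 14 and -1.12 at day 28) followed among genes with a lower value at day 28, with adjusted p-values of 0.17, 0.17, 0.20 and 0.23. Among genes with a higher value at day 28, the smallest p-values were those of Ifit2 (-0.38 at day 14 and 1.32 at day 28, adjusted p = 0.21), LOC100913013, called H60bl1 by RefSeq and measured by 2 probes (1.89 at day 14 and 3.73 at day 28 for the brighter), Slfn1 (0.10 at day 14 and 1.32 at day 28, adjusted p = 0.23) and 1 probe of Kcnip4 (0.81 at day 14 and 2.89 at day 28, adjusted p = 0.23). The list of interferon genes had medians of 0.59 at day 14 and 1.48 at day 28, the cell cycle list 0.98 at day 14 and 1.64 at day 28 and the matrix list 0.03 at day 14 and 1.22 at day 28, where the value of day 14 changes with the setting as given above. Adamts4, an aggrecanase, had 0.03 at day 14 and 3.47 at day 28, and Nr1d1 -0.82 at day 14 and -2.94 at day 28, neither of them past the interaction test (adjusted p = 0.24 and 0.48). The macrophage list had 1.67 at day 14 and 2.12 at day 28, the lysosomal list 1.49 at day 14 and 1.74 at day 28 and the endothelial list -1.13 at day 14 and -1.49 at day 28. Lcn2 had 4.30 at day 14 and 4.32 at day 28, Gpnmb 3.97 at day 14 and 4.12 at day 28 and Zbtb16 -2.67 at day 14 and -2.70 at day 28. No gene of any list passed the interaction test.

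Several probes measured the same gene in part of the table. Of 151 genes with more than 1 tested probe, 150 had log2 fold changes of the same sign in all probes, 37 had probes that differed in call, and none had probes called in opposite directions. Of the called probes, 1136 (69.0%) had no name here. The unnamed probe with the largest rise was A_44_P491796, with signals of 11.79, 11.62 and 11.76 in the silica lungs and 5.27, 3.05 and 4.90 in the saline lungs (log2 fold change 7.32 ± 0.52 (SE), adjusted p = 0.0023), and it was well above background on 2 saline arrays. A_43_P12772 followed, with 12.43, 12.60 and 12.51 in the silica lungs and 7.78, 6.26 and 6.28 in the saline lungs (log2 fold change 5.74). The largest falls were those of A_44_P1004757, with 5.35, 5.39 and 6.26 in the silica lungs and 10.07, 9.30 and 10.02 in the saline lungs (log2 fold change -4.13), and of A_44_P1103950, which was not well above background on any silica array and was at least 7.32-fold lower (means 3.01 and 6.75).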

How the data were processed

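Total RNA of whole lung was hybridised to 1-colour Agilent rat arrays. The authors scanned them with Agilent Feature Extraction 10.7.1.1, per the file headers, and the deposited processed intensity of a spot is background-subtracted and detrended within its array. Their log2 table, deposited beside the scanner files, was quantile normalized over all 12 arrays in GeneSpring and served as an alternative. From the intensities, control and outlier spots were left out, spots of a probe were averaged, and log2 values were quantile normalized over the 6 arrays of day 14. Probes entered the test if either group had all its 3 arrays well above background (33615 probes). Silica and saline were compared with limma 3.58.1 in R 4.3.3, two-sided, with Benjamini-Hochberg adjustment over all probes kept, and calls needed both an adjusted p up to 0.05 and a change of 2-fold or more. The days were compared by an interaction over all 12 arrays, normalized together (34097 probes). The number of arrays limits the precision. The fit was tested on simulated data.

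Probe names and probe sequences were taken from the readable part of the study's table of day 28 changes (1279 of 2275 probes), and its columns of fold changes and p-values, the authors' own comparison, were not used. RefSeq symbols were matched for all but 63 of them, and 4 symbols that a spreadsheet had turned into dates were read through their accessions. Each gene was represented by its brightest probe. A probe below background on all arrays of a group has only a bound, set by the lowest signal well above background on each array. The genes named are the 10 largest rises and falls among called probes well above background on all 6 arrays, members of the lists, the 5 smallest interaction p-values in each direction, and at most 2 unnamed probes per direction. Further list members, and Fabp4, Slc26a4 and Saal1, were chosen after their values were seen. Some list members are counted but not reported here by name. The comparison, the members and the lists were chosen with earlier results of these data known.

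Alternatives changed the scaling, background correction, filter, samples, test and minimum fold, and a block for the row of the slide was chosen after seeing the data. The replicate numbers were checked for pairing: the deviations of same-numbered silica and saline rats correlated at r of 0.02, -0.17 and 0.06. Those of differently numbered rats correlated at r between -0.21 and 0.18. The check showed no pairing, but with 3 rats per group it cannot exclude one. Python 3.11.15 with pandas 2.3.3, numpy 2.4.6 and matplotlib 3.10.9 was used for summaries and plots.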

Additional observations from a re-analysis of the deposited data

How the results depend on the processing

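The 1646 calls at day 14 became 1609 with scaling by the 75th percentile, 1678 with the authors' normalized table, 1386 with probes well above background on all arrays and 1914 with all 12 arrays in the fit. They became 709 with the normexp background, 395 without a filter on dim probes, 3145 without a minimum fold change and 99 with the slide row as a block. The methods' t-test at its unadjusted threshold gave 1850, and after Benjamini-Hochberg adjustment it gave 1. Leaving out 1 rat at a time gave between 321 and 2327 calls, and fewest without saline rat 2. Of the named probes, 510 were called, and 269 with the normexp background, 120 without the filter, 30 with the slide row as a block, 1 with the methods' t-test after adjustment, and between 111 and 627 without 1 rat. The replicate number as a block gave 1533 calls in place of 1646. No pairing of rats by this number was shown, and 6 of the 109 called genes checked singly lost their call with this block. No called gene of these 109 changed direction in any setting, and their calls were lost for 32 genes with the normexp background, 67 without the filter, 96 with the slide row as a block and 108 with the adjusted methods' t-test. Of 864 list counts compared, 239 moved. The 0 interaction calls became 1 with the normexp background, 1 without the filter, 1 with probes well above background on all arrays and 4 with the slide as a block, and lay between 0 and 271 without 1 rat (271 without saline rat 1 of day 28 and 23 without silica rat 1 of day 14). Adamts4, at 0.03 at day 14, was at -1.08 with the slide row as a block and between -0.43 and 0.59 without 1 rat, with -0.19, -0.07 and -0.43 without saline rat 2, silica rat 1 and silica rat 2. Nr1d1, at -0.81, was at 0.17 with the slide row as a block. Sptb, at 0.10, was at -0.0073 with the normexp background and between -0.13 and 0.27 without 1 rat, and below 0 without saline rat 1 or silica rat 1. The cause of these changes was not tested.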
